A study of Homo sapiens with 16 samples.

Results

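Alpha-arrestins and the glucose-sensing factors of the MondoA and MLX family were described in a pair of established human cell lines of colorectal cancer, HT55 and SW948, after the antifungal itraconazole or its solvent. The list held 8 genes, the alpha-arrestins ARRDC1, ARRDC2, ARRDC3, ARRDC4 and TXNIP and the factors MLX, MLXIP (MondoA) and MLXIPL (ChREBP). They were matched by symbol to the 54127 gene identifiers of the count files. Of the 8, 7 were found, and TXNIP, for which the gene tables used gave no identifier present in the count files, was not analysed here. The family was chosen by the response of ARRDC3 in these libraries, which differed in direction between the lines, so every value of ARRDC3 is a description and carries no test. RNA was sequenced from 4 groups of 4 libraries, since each line was given DMSO (the control) or itraconazole. All cells grew attached in medium with foetal bovine serum and antibiotics, the dose was 5 µM, and RNA was taken at day 6. Each line is a single established line. The study's methods call the replicates of its RNA sequencing biological, but neither they nor the labels say what was replicated, so p-values measure the spread between these libraries.

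Alpha-arrestins are adaptor proteins that bind ubiquitin ligases of the NEDD4 family and bring them to membrane proteins, which are then internalised or sorted to the lysosome. TXNIP, the best known of them, promotes removal of the glucose transporter GLUT1 from the cell surface and binds thioredoxin. MondoA and ChREBP sense glucose as glucose 6-phosphate, and each binds DNA as a pair with MLX at carbohydrate response elements, which hold a pair of E-box-like motifs. TXNIP and ARRDC4 are established targets of MondoA, and TXNIP feeds back by limiting glucose entry.

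The sequences upstream of 3 genes are given to set windows with and without an E-box, a motif that MLX pairs can bind, side by side. ARRDC4 and MLX each held an E-box, and ARRDC3, whose RNA level differed most between groups, held none. Lack of an E-box was not particular to ARRDC3, since ARRDC1, ARRDC2, TXNIP, MLXIP and MLXIPL held none either. Windows are the 250 bases before a RefSeq transcription start (GRCh38.p14), a build other than that of the counts. All 8 genes were matched, with 11 windows in all. Both strands were searched for the E-box, CACGTG, and for the carbohydrate response element spelled as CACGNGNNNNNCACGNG. Capitals mark the E-box.
ARRDC3 (the more upstream of its 2 starts, chr5:91383318-91383567, minus strand): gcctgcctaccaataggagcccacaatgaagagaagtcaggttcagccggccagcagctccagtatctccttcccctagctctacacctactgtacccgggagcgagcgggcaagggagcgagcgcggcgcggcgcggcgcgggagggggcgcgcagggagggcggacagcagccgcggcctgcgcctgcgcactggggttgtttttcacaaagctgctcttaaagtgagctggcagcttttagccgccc
ARRDC4 (chr15:97960453-97960702, plus strand): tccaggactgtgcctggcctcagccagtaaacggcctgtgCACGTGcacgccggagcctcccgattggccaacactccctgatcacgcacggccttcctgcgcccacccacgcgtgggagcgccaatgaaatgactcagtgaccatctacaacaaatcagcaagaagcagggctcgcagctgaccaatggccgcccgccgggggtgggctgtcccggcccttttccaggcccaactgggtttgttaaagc
MLX (chr17:42566850-42567099, plus strand): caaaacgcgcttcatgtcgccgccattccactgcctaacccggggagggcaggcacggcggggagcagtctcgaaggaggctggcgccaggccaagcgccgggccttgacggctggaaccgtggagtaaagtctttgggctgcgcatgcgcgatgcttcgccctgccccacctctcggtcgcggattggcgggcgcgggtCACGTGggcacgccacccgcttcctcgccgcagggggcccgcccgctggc
Counted from the start, the E-box began at position -210 in ARRDC4 and at position -50 in MLX. Of the 11 windows, 2 held an E-box. Of 35116 windows of the same length, 6.34% held an E-box. The longer element matched in 1 of the 11 windows, that of TXNIP, as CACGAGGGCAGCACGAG from position -88, and 0.0456% of all windows held it. Neither window of ARRDC3 had a match to either motif. These matches describe letters in a window and not bound sites.

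Gene counts per library ran from 8269406 to 11110814. Levels are CPM, the counts per 1000000 gene counts, after TMM scaling over the 16 libraries. A gene was called where edgeR's quasi-likelihood test gave a Benjamini-Hochberg adjusted p under 0.05 over all genes tested. All 11 markers of colorectal epithelium were above 1 CPM in every group. Of the other marker lists, 1 of 6 fibroblast genes (COL1A1 or PDGFRB), 1 of 5 leukocyte genes (CD68, which epithelial lysosomes also contain) and 0 of 3 endothelial genes passed 1 CPM on the group mean in each group, and CD3E, COL3A1 and KDR had no counts. The summed leukocyte list was 18 to 27.4 CPM in SW948 DMSO and 94.3 to 108 CPM in SW948 itraconazole on plain library totals. The summed fibroblast list was 1.44 to 2.18 CPM and 3.07 to 3.6 CPM in HT55 without and with itraconazole, and 2.97 to 5.53 CPM and 8.74 to 11 CPM in SW948. The part of both lists in the results was not tested. The labels give no batch.

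ARRDC3, an alpha-arrestin known for the turnover of adrenergic receptors and integrin beta 4, was lower with itraconazole in HT55 and higher in SW948. It lies on chromosome 5 at 90664448 to 90679134 on the minus strand (GRCh37, as for all gene positions below). In HT55 DMSO it stood at 45.1, 42, 43.3 and 47 CPM, and in HT55 itraconazole at 17.1, 15, 7.99 and 7.83 CPM. In SW948 DMSO it stood at 5.3, 4.83, 1.65 and 5.47 CPM, and in SW948 itraconazole at 19, 28.4, 23.5 and 25 CPM. Every treated HT55 library was below every HT55 control, every treated SW948 library was above every SW948 control, and none of the 4 groups overlapped another. Levels ran from HT55 DMSO at 44.3 ± 2.16 CPM (SD, n = 4), through SW948 itraconazole at 24 ± 3.88 and HT55 itraconazole at 12 ± 4.78, to SW948 DMSO at 4.31 ± 1.8. In bulk RNA, fewer cells that express a gene and less RNA per cell cannot be told apart.

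On the log2 scale the difference of ARRDC3 between itraconazole and DMSO was -1.90 ± 0.22 (SE) in HT55 and 2.42 ± 0.24 in SW948, and the difference between those responses was 4.35 ± 0.35. With DMSO, SW948 was below HT55 by a log2 difference of -3.34 ± 0.14. With itraconazole, SW948 was above HT55, with a log2 difference of 1.01 ± 0.24. The order of the lines for ARRDC3 was therefore the reverse after treatment of what it was with DMSO. Replicate 3 of SW948 DMSO held 19 counts of ARRDC3, where the other 3 libraries held 51 to 71. Without that library the SW948 response was 2.15 and the difference between responses 4.09. In HT55 itraconazole, replicates 3 and 4 were at about the same low level. In these, 29.8% and 30.3% of all counts in the file were not assigned to a gene, against 32.3% and 32.9% in replicates 1 and 2. Most such counts were of reads with several alignments, at 24.1% and 24.8% of all counts against 27.3% and 27.9%. The part of that in the ARRDC3 values was not tested.

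**Figure D1:**
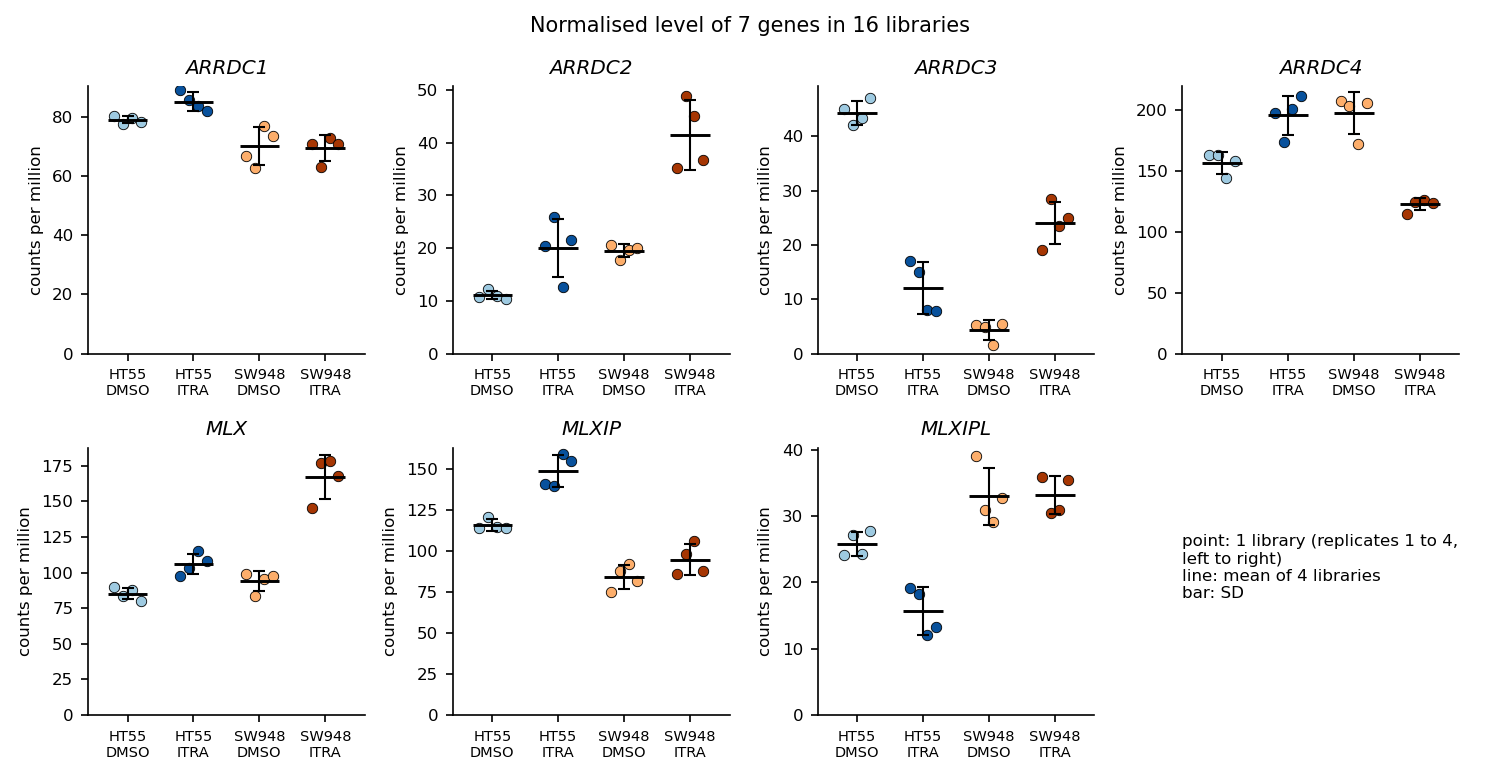
Level of the 7 genes in CPM (y axes, linear from 0) in the 4 groups (x axes), with 1 point per library and the mean and SD of 4 libraries. ARRDC3 falls into 4 levels that do not overlap, ARRDC4 is lowest in SW948 with itraconazole, and ARRDC2 and MLX are highest there.

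None of the other alpha-arrestins analysed changed with ARRDC3 in both lines, though ARRDC2 rose with it in SW948. Of the 6 genes other than ARRDC3, 4 rose and 1 fell in HT55, where 27.5% of the 12133 genes tested rose and 26.5% fell. In SW948, 2 rose and 1 fell, where 38.9% of the 12505 genes tested rose and 41.3% fell. Calls were thus common among all genes, and the count of members called is no more than a description. Plain library totals in place of TMM move the median log2 change of all genes by -0.16 in HT55 and -0.33 in SW948. They also bring the share of calls that are higher from 51% to 32.6% in HT55 and from 48.5% to 31.6% in SW948, so small changes below depend on the scaling.

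ARRDC4, an alpha-arrestin close to TXNIP in sequence, changed in opposite directions in the lines under TMM scaling, each time against the direction of ARRDC3. The gene is on chromosome 15 at 98503933 to 98517063 on the plus strand. In HT55 it read 163, 163, 144 and 158 CPM with DMSO and 198, 174, 201 and 212 CPM with itraconazole. In SW948 it read 208, 204, 172 and 206 CPM with DMSO and 115, 125, 126 and 124 CPM with itraconazole. The groups did not overlap within either line. ARRDC4 rose in HT55 by 0.32 ± 0.074 (log2, SE; adjusted p = 0.00484), a call lost on plain totals, where the value was 0.15 (adjusted p = 0.151). In SW948 it fell, at a log2 fold change of -0.72 ± 0.073 (adjusted p = 5.53e-07) and of -1.05 on plain totals. The responses differed by -1.01 ± 0.11 (adjusted p = 3.34e-07). Among the 6 genes tested, ARRDC4 was the one called in opposite directions in the lines under TMM scaling. Its changes were smaller than those of ARRDC3 in both. The share of all genes with opposite calls was not counted, and ARRB1 and VPS26B, described below, also had them.

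ARRDC2, an alpha-arrestin whose own role is less studied, rose in both lines. Its position is chromosome 19 at 18111941 to 18124911 on the plus strand. In HT55 it read 10.8, 12.3, 11 and 10.3 CPM with DMSO and 20.3, 25.9, 12.7 and 21.6 CPM with itraconazole. In SW948 it read 20.6, 17.8, 19.6 and 20.1 CPM with DMSO and 35.1, 48.8, 45.1 and 36.6 CPM with itraconazole. Replicate 3 of treated HT55 lay just above the highest HT55 control, and the other treated libraries lay well above their controls. The log2 fold change was 0.84 ± 0.19 in HT55 (adjusted p = 0.00383) and 1.04 ± 0.11 in SW948 (adjusted p = 9.31e-07). The difference of 0.23 between the responses did not pass (95% interval -0.24 to 0.71, adjusted p = 0.401). It was 0.043 without replicate 3 of treated HT55, 0.38 without replicate 2 of treated HT55, and 0.043 on plain totals, and passed in none of these.

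ARRDC1, which recruits the ESCRT protein TSG101 to form vesicles at the plasma membrane, was not called in either line. The gene is on chromosome 9 at 140500137 to 140509812 on the plus strand. It read 77.8 to 80.4 CPM in HT55 DMSO, 81.9 to 89.2 in HT55 itraconazole, 62.9 to 77.1 in SW948 DMSO and 63 to 72.8 in SW948 itraconazole. The ranges were narrowly apart in HT55 and overlapped in SW948. The log2 fold change was 0.10 in HT55 (95% interval -0.022 to 0.23, adjusted p = 0.145), where plain totals reversed it to -0.063, and -0.047 in SW948 (interval -0.21 to 0.12, adjusted p = 0.583), where plain totals gave -0.38 (adjusted p = 0.00109). The antisense ARRDC1-AS1 overlaps its end by 35 bases. It stood at 12.2 ± 1.34 and 9.88 ± 1.96 CPM in HT55 without and with itraconazole, and at 6.58 ± 1.06 and 6 ± 0.531 CPM in SW948, and passed the test in neither line. The sources used do not give the strand setting of the counting, so reads in that overlap could not be assigned by strand. The antisense ARRDC3-AS1, which overlaps ARRDC3 by 2969 bases, was not analysed here.

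MLX, the shared partner that MondoA and ChREBP need to bind DNA, rose in both lines under TMM scaling and more in SW948. It lies on chromosome 17 at 40719090 to 40725257 on the plus strand. In HT55 it read 89.5, 83.8, 87.4 and 80.3 CPM with DMSO and 97.7, 103, 115 and 108 CPM with itraconazole. In SW948 it read 99.2, 83.5, 95.4 and 97.4 CPM with DMSO and 145, 177, 178 and 168 CPM with itraconazole. Treated libraries were above all controls of their line, and treated SW948 stood apart from the other 3 groups. The log2 fold change was 0.31 ± 0.069 in HT55 (adjusted p = 0.00339, but 0.15 and adjusted p = 0.142 on plain totals). It was 0.80 ± 0.08 in SW948 (adjusted p = 5.24e-07). The responses differed by 0.51 ± 0.11 (adjusted p = 0.00062). PSMC3IP on the other strand overlaps the end of MLX by 930 bases and had 896 counts over the 16 libraries, against 677 to 1486 counts of MLX in a single library.

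MLXIP encodes MondoA, the glucose sensor that most tissues use. It lies on chromosome 12 at 122516628 to 122631894 on the plus strand. It read 114, 121, 115 and 114 CPM in HT55 DMSO and 141, 140, 159 and 155 CPM in HT55 itraconazole. In SW948 it read 75, 87.9, 92.1 and 81.5 CPM with DMSO and 86, 98.3, 106 and 88.1 CPM with itraconazole. The groups were apart in HT55 and overlapped in SW948. MLXIP rose in HT55 by 0.35 ± 0.064 (log2, SE; adjusted p = 0.00105), a call that plain totals end at 0.19 (adjusted p = 0.0564). In SW948 its value was 0.14 (95% interval -0.043 to 0.32, adjusted p = 0.144), and plain totals reversed it to -0.20 (adjusted p = 0.0297). Leaving out replicate 1 of SW948 itraconazole brought it to 0.20 and past the threshold. The difference between the responses, -0.19, did not pass (95% interval -0.42 to 0.044, adjusted p = 0.16).

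MLXIPL encodes ChREBP, the form of the sensor best known from liver and fat. Its position is chromosome 7 at 73007524 to 73038873 on the minus strand. In HT55 it read 24.2, 27.1, 24.3 and 27.8 CPM with DMSO and 19.2, 18.2, 12 and 13.3 CPM with itraconazole. In SW948 it read 39, 30.9, 29.1 and 32.8 CPM with DMSO and 35.9, 30.4, 30.9 and 35.4 CPM with itraconazole. In HT55 it fell, at a log2 fold change of -0.73 ± 0.15 (adjusted p = 0.00219), and the treated and control libraries did not overlap. Replicates 3 and 4 of treated HT55 were again the lower ones, as for ARRDC3. In SW948 the ranges overlapped and the value was -0.024 (95% interval -0.24 to 0.19, adjusted p = 0.834), and plain totals brought it to -0.35 (adjusted p = 0.0123). The responses differed by 0.73 ± 0.18 (adjusted p = 0.0023). MLXIPL and MLXIP, which encode the alternative partners of MLX, thus had opposite calls within HT55 under TMM scaling. On plain totals the rise of MLXIP there was not called (0.19).

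**Figure D2:**
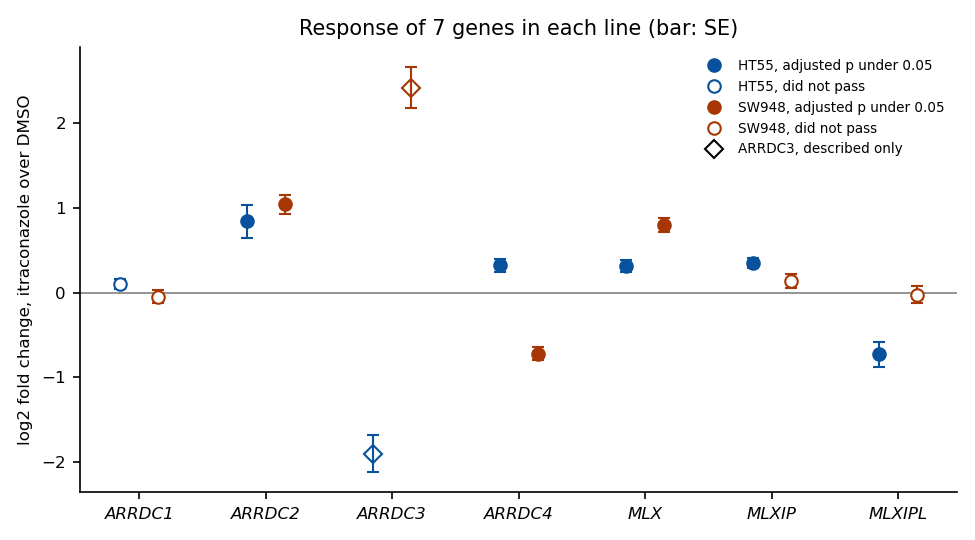
Log2 fold change of itraconazole over DMSO (y axis) for the 7 genes (x axis) in HT55 (blue) and SW948 (red-brown), with SE bars. Filled points passed an adjusted p of 0.05, open circles did not, and diamonds mark ARRDC3, which was described only. ARRDC3 lies well away from 0 on opposite sides in the 2 lines. ARRDC4 also lies on opposite sides, at 0.32 in HT55 and -0.72 in SW948, and ARRDC1 lies close to 0 in both.

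Tested over both lines together, 2 of the 6 genes had a higher signed log2 response in SW948 than in HT55 (MLX and MLXIPL) and 1 a lower one (ARRDC4). For MLXIPL this was a fall in HT55 (-0.73) without a call in SW948 under TMM scaling (-0.024). Over the 13249 genes tested, 24.8% had a higher response in SW948 and 29.1% a lower one. On plain totals the median of all genes moved by -0.19, the share of calls that were higher moved from 46.1% to 31.8%, and ARRDC1 (-0.31, adjusted p = 0.0182) and MLXIP (-0.39, adjusted p = 0.00695) were called as well.

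The lines differed with DMSO alone. Of the 6 genes other than ARRDC3, 4 were higher in SW948 (ARRDC2, ARRDC4, MLX and MLXIPL) and 2 were lower (ARRDC1 and MLXIP), where 42.6% of the 12820 genes tested were higher and 41.6% lower. The largest of these was ARRDC2, with a log2 difference of 0.82 ± 0.09 (adjusted p = 8.69e-09), and MLXIP had -0.46 ± 0.053 (adjusted p = 1.45e-08). MLX, at 0.14 ± 0.054 (adjusted p = 0.0163), had overlapping ranges. ARRDC1, at -0.17 ± 0.055 (adjusted p = 0.00738), turned to 0.025 on plain totals, which moved the median of all genes by 0.19 and the share of calls that were higher from 50.5% to 60.2%. With itraconazole in both lines, 3 were higher in SW948 (ARRDC2, MLX and MLXIPL) and 3 lower (ARRDC1, ARRDC4 and MLXIP), where 37.8% of the 12353 genes tested were higher and 38.8% lower. MLXIPL had a log2 difference of 1.09 ± 0.16 (adjusted p = 3.94e-05) and ARRDC4 of -0.67 ± 0.086 (adjusted p = 1.48e-05). ARRDC4 and ARRDC3 were thus the members whose order between the lines was not the same with itraconazole as with DMSO.

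Levels of different genes were compared per kilobase of exon (CPM divided by the length of all annotated exons). ARRDC4 was the highest in HT55 DMSO (38.6 ± 2.24, SD, n = 4), HT55 itraconazole (48.2 ± 3.94) and SW948 DMSO (48.6 ± 4.22). MLX was the highest in SW948 itraconazole at 39.2 ± 3.66 CPM per kilobase, with ARRDC4 next at 30.2 ± 1.21. ARRDC3 was the fourth of 7 in HT55 DMSO at 8.89 CPM per kilobase and the lowest in the other 3 groups, at 2.4, 0.865 and 4.81. MLXIP stood above MLXIPL in HT55, at 8.35 against 5.36 CPM per kilobase with DMSO and 10.7 against 3.26 with itraconazole. In SW948 the levels of this pair were closer, at 6.05 ± 0.539 against 6.85 ± 0.894 with DMSO and 6.81 ± 0.68 against 6.89 ± 0.595 with itraconazole. The order of the middle ranks depends on the length used.

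**Figure D3:**
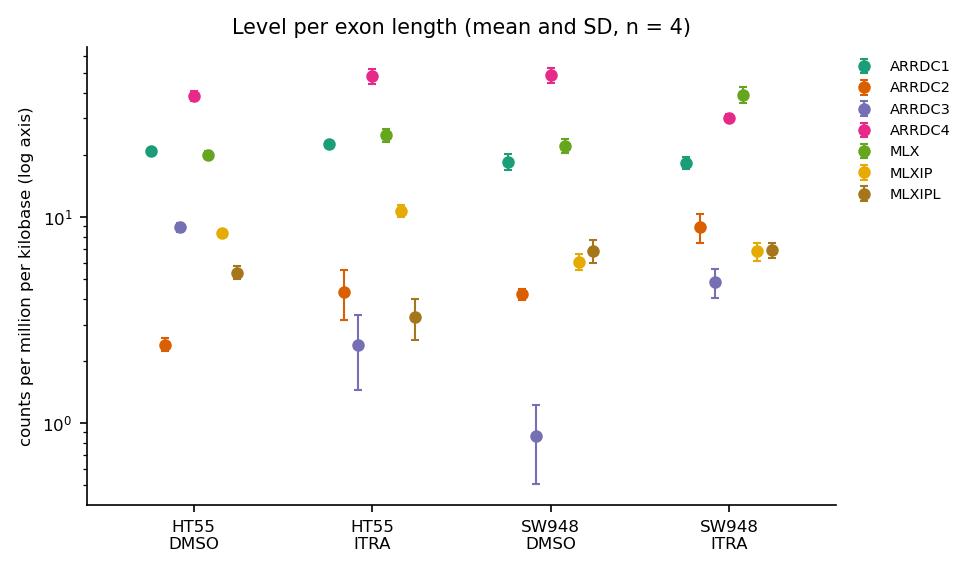
CPM per kilobase of exon (y axis, log scale) of the 7 genes in the 4 groups (x axis), as mean and SD of 4 libraries. ARRDC4, MLX and ARRDC1 are the 3 highest in every group, and ARRDC3 is the lowest in all but HT55 with DMSO.

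The proteins that alpha-arrestins work with, and the genes around the glucose sensors, were followed as 7 lists. These lists were chosen with earlier results of these data known, so their counts and medians are descriptions. Their counts are to be read against all genes tested, where in HT55 27.5% were called higher and 26.5% lower, and in SW948 38.9% higher and 41.3% lower, and nothing is read from a share near these. Plain totals lower the median of every list in both lines, as they do that of all genes. Of 8 genes tested among the NEDD4-family ubiquitin ligases and TSG101, 4 rose, 0 fell and 4 did not pass in HT55 (median log2 change 0.27, all genes -0.015), and 5 rose, 2 fell and 1 did not pass in SW948 (median 0.26, all genes -0.025). On plain totals the list medians were 0.11 in HT55 and -0.07 in SW948. SMURF1, a ligase of TGF-beta signalling, rose most, by 1.13 ± 0.12 in HT55 and 1.91 ± 0.1 in SW948, and NEDD4L rose by 0.44 ± 0.078 and 0.76 ± 0.058. NEDD4 itself stood at -0.063 in HT55 and fell in SW948, with -0.90 ± 0.1, and WWP2 fell there with -0.58 ± 0.077. TSG101 stood at -0.09 and 0.035 and did not pass in either line.

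Among the other genes with an arrestin fold, 2 rose, 1 fell and 2 did not pass in HT55, and 1 rose, 3 fell and 1 did not pass in SW948 (medians 0.039 and -0.33, and -0.12 and -0.65 on plain totals). ARRB1, the beta-arrestin 1 of G protein-coupled receptors, rose in HT55 from 20.9 ± 1.68 to 47.5 ± 9.17 CPM and fell in SW948 from 49.4 ± 4.12 to 16.2 ± 3.55 CPM. Its responses differed by -2.79 ± 0.2 (adjusted p = 3.25e-09). ARRB2, the beta-arrestin 2 gene, fell in both lines, with -0.49 ± 0.075 and -0.79 ± 0.095. The retromer subunit gene VPS26B rose in HT55 by 0.39 ± 0.059 and fell in SW948, with -0.33 ± 0.069, and VPS26C stood at 0.039 in HT55 and rose by 0.60 ± 0.061 in SW948.

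Of the membrane proteins known as alpha-arrestin cargo, 1 rose, 0 fell and 2 did not pass in HT55, and 2 rose, 1 fell and 2 did not pass in SW948 (medians -0.038 and 0.27, and -0.20 and -0.054 on plain totals). SLC2A1, which encodes the TXNIP cargo GLUT1, stood at 1975 ± 39.9 and 1929 ± 235 CPM in HT55 without and with itraconazole (-0.038, adjusted p = 0.731). It fell in SW948 from 273 ± 13.3 to 164 ± 35.3 CPM (-0.77 ± 0.12, adjusted p = 3.85e-05), and the responses differed by -0.70 ± 0.16 (adjusted p = 0.00123). ITGB4, the integrin that ARRDC3 takes as cargo, rose in SW948 by 0.93 ± 0.079. In HT55 it rose by 0.17 ± 0.065 (adjusted p = 0.0485), a call that plain totals end (0.0024, adjusted p = 0.974). The iron transporter gene SLC11A2 stood at -0.082 in HT55 and rose by 0.36 ± 0.079 in SW948, where plain totals gave 0.03 (adjusted p = 0.772).

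In the thioredoxin system, to which TXNIP binds, 3 genes rose, 3 fell and 3 did not pass in HT55, and 3 rose, 2 fell and 4 did not pass in SW948 (medians -0.10 and 0.068, and -0.27 and -0.27 on plain totals). TXNRD1, the cytosolic thioredoxin reductase, rose from 163 ± 1.47 to 369 ± 98.8 CPM in HT55 and from 204 ± 7.46 to 1088 ± 271 CPM in SW948. PRDX1, a peroxidase that thioredoxin recycles, rose by 0.90 ± 0.075 and 1.27 ± 0.092. PRDX2 stood at -0.19 in HT55 (adjusted p = 0.054) and fell in SW948, with -0.68 ± 0.061. TXNRD2, the mitochondrial reductase, rose in HT55 by 0.52 ± 0.14, but not on plain totals (adjusted p = 0.0724), and stood at 0.021 in SW948. TXN, thioredoxin itself, stood at 0.21 in HT55 (adjusted p = 0.137) and rose by 0.36 ± 0.067 in SW948, where plain totals gave 0.03 (adjusted p = 0.6).

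MLX also pairs with MNT and with some MXD factors, which compete with MYC for MAX. In this network 4 genes rose, 1 fell and 2 did not pass in HT55, and 3 rose, 1 fell and 3 did not pass in SW948 (medians 0.40 and -0.026, and 0.23 and -0.36 on plain totals). MXI1, a repressor that pairs with MAX, rose by 2.06 ± 0.3 in HT55 and 1.62 ± 0.085 in SW948. MNT rose by 0.97 ± 0.2 and 1.70 ± 0.062. MXD4 rose in HT55 by 1.16 ± 0.081 and stood at -0.055 in SW948, and the responses differed by -1.19 ± 0.11 (adjusted p = 1.04e-07). MXD1 rose in SW948 by 1.20 ± 0.12 and in HT55 by 0.40 ± 0.11 (adjusted p = 0.0104), the latter not on plain totals (adjusted p = 0.0633). MAX stood at -0.075 and -0.026 and did not pass in either line.

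Glucose 6-phosphate, the signal that MondoA and ChREBP sense, is made by hexokinases and removed by glucose 6-phosphatases. Of this list, 3 genes rose, 1 fell and 4 did not pass in HT55, and 4 rose, 4 fell and 1 did not pass in SW948 (medians 0.066 and -0.22, and -0.11 and -0.55 on plain totals). HK1, the hexokinase of most tissues, rose by 0.81 ± 0.074 in HT55 and 1.95 ± 0.08 in SW948. G6PC3, the phosphatase of most tissues, fell in both lines, from 61.7 ± 3.59 to 44.4 ± 3.99 CPM in HT55 and from 39.3 ± 2.14 to 10.9 ± 1.99 CPM in SW948. SLC37A4, which carries glucose 6-phosphate into the endoplasmic reticulum, stood at -0.091 in HT55 and fell in SW948, with -1.27 ± 0.1. SLC2A3, which encodes the transporter GLUT3, rose in SW948 from 0.326 ± 0.176 to 2.01 ± 0.413 CPM, which rests on 16 counts in the DMSO group, and stood at 0.15 in HT55.

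Of the carbohydrate-response targets of ChREBP and MondoA, 4 rose, 3 fell and 3 did not pass in HT55, and 4 rose, 4 fell and 0 did not pass in SW948 (medians 0.34 and 0.30, and 0.17 and -0.03 on plain totals). The lipid synthesis genes FASN and SCD, which SREBP factors also drive, rose by 1.25 ± 0.079 and 0.84 ± 0.074 in HT55 and by 1.60 ± 0.088 and 2.34 ± 0.099 in SW948. TKFC, an enzyme of fructose breakdown, fell in both lines, with -0.49 ± 0.1 and -2.06 ± 0.1. KLF11, a transcription factor gene, stood at 0.14 in HT55 (adjusted p = 0.553) and rose by 1.19 ± 0.14 in SW948. The calls held rises and falls in both lines, and in SW948 most of all genes tested were called as well.

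**Figure D4:**
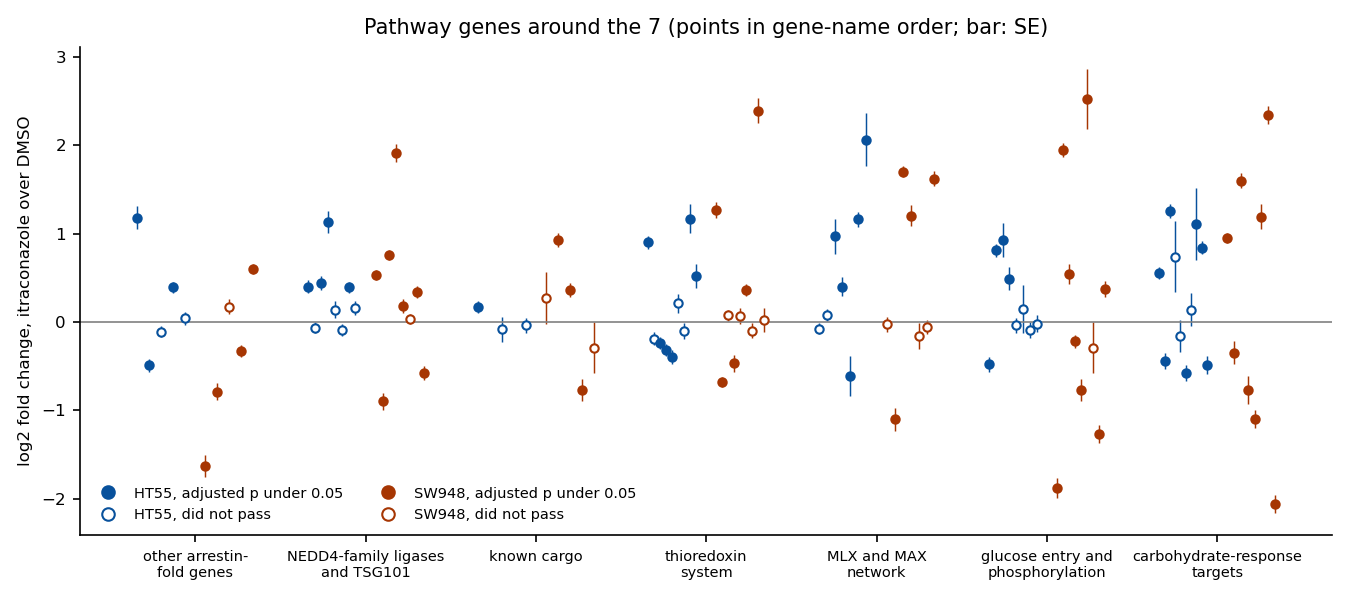
Log2 fold change of itraconazole over DMSO (y axis) for the tested genes of 7 lists (x axis) in HT55 (blue) and SW948 (red-brown), with SE bars. Filled points passed an adjusted p of 0.05 and open points did not, and every list has points on both sides of 0 in SW948.

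The genes with the pattern closest to that of ARRDC3 were found among 9103 genes by Pearson's r of log2 CPM over the 16 libraries, which fall into 4 groups, so r mostly reads the order of the group means. It is a description, and the libraries share line, treatment and depth. The closest were ODF2 (r = 0.961, Spearman's rho = 0.965), YARS1 (0.947 and 0.988), ISCU (0.942 and 0.903), PPRC1 (0.938 and 0.944) and CISH (0.913 and 0.865). As a fold of the highest over the lowest group mean, each spanned less than ARRDC3, which had 10.3. ODF2 ran from 58.6 CPM in SW948 DMSO to 94.6 CPM in HT55 DMSO. In the same groups YARS1 ran from 231 to 342 CPM and CISH from 4.91 to 17.1 CPM. For ARRDC4, taken in place of TXNIP after the data had been seen, the closest were NFKB1 (r = 0.938, rho = 0.903), PDE4D (0.929 and 0.906), NABP1 (0.922 and 0.876), CEMIP2 (0.921 and 0.938) and USF3 (0.916 and 0.882). CEMIP2 ran from 99.9 CPM in SW948 itraconazole to 224 CPM in SW948 DMSO.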

How the data were processed

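Reads were single-end 50 bp TruSeq reads from total RNA. The authors deposited raw read counts per gene for each of the 16 libraries, on human genome hg19 (GRCh37). The submitters' processing notes name TopHat, HTSeq and DESeq, with versions not given in the sources used here, and the strand setting is not given either. In each file, counts not assigned to a gene were set apart, at 28.2% to 32.9% of all counts in the file. Most of these were of reads with several alignments (22% to 27.9% of all counts in the file). Whether such a read was counted once or once per alignment is not given in the sources used. These are therefore shares of counts and may differ from shares of reads. The others included reads outside genes and ambiguous reads. All reads set apart were left out of all totals.

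A symbol was found for 47098 of 54127 identifiers. Gene positions, exon lengths and overlaps came from a GENCODE annotation on GRCh37, and upstream sequences from RefSeq (GRCh38.p14). Counts were tested in R 4.3.3 with the quasi-likelihood test of edgeR 4.0.16 (TMM, filterByExpr, no covariate), per line on 8 libraries, on 8 libraries for each comparison of lines, and on 16 for the interaction. All 7 genes passed the filter in all 5 comparisons. Precision is set by the counts and by 4 libraries per group. Tables were made with pandas 2.3.3.

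The members and lists were chosen with earlier results of these data known. Named genes are the 7 found, from each list at most 4 genes with the largest absolute log2 fold change at an adjusted p under 0.05 in either line, SLC2A1, TXN, TSG101, MAX, the antisense neighbours, and the 5 genes most like ARRDC3 and TXNIP (here ARRDC4) among genes whose mean log2 CPM (prior count 2) reached 3. The alternatives tried were plain totals, size factors and the Wald test of DESeq2 1.42.0, other filters, an adjusted p under 0.01, a block by replicate number, leaving out the 20 most counted and the mitochondrial genes, leaving out each library, and 1 fit on all 16 libraries.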

Additional observations from a re-analysis of the deposited data

Results flagged for a closer look

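Differences between the lines passed the interaction test for 3 genes, with log2 differences (SW948 response minus HT55 response) of -1.01 for ARRDC4, 0.51 for MLX and 0.73 for MLXIPL. For ARRDC3 the difference was 4.35 and was not tested, because the gene was chosen on it. All 4 treated HT55 libraries were below, and all 4 treated SW948 libraries above, the mean of their controls.

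In 2 of 28 sets of 4 libraries (7 genes in 4 groups), 1 library lay far from the other 3, with a gap that took more of the range than Dixon's critical value for 4 samples. Chance gives about 1 in 20 such sets, or 1.4 here. Both were replicate 3 of SW948 DMSO, which was the lowest for ARRDC3 (gap 0.831 of the range) and for ARRDC4 (gap 0.89). ARRDC4 read 172 CPM there and 204 to 208 CPM in the other 3 libraries. That library also had the lowest share of counts not assigned to a gene of the 16, at 28.2%. Most of these counts were of reads with several alignments (22% of all counts in its file). The part of this share in both values was not tested.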

How the results depend on the processing

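Under DESeq2 size factors, the DESeq2 Wald test, either other filter, the replicate block and without the 20 most counted and mitochondrial genes, every member kept its direction and its side of the threshold in all 5 comparisons. ARRDC3 kept its direction under all alternatives run, at -2.12 to -1.72 in HT55 and 2.15 to 2.56 in SW948 without 1 library. Most other changes came with the scaling. On plain totals the genes called other than ARRDC3 went from 5 to 2 in HT55, from 3 to 6 in SW948 and from 3 to 5 for the difference between responses. In HT55 these totals gave -0.063 for ARRDC1 (reversed), 0.15 for ARRDC4, 0.15 for MLX and 0.19 for MLXIP, none called. In SW948 they gave -0.38 for ARRDC1 and -0.35 for MLXIPL, both called, and -0.20 for MLXIP (reversed). For the difference between responses they gave -0.31 for ARRDC1 and -0.39 for MLXIP, both called, and between the lines with DMSO 0.025 for ARRDC1 (reversed). The cause was not tested.

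In SW948, the value of MLXIPL turned to 0.0091 in 1 fit on all 16 libraries. Leaving out 1 library gave -0.087 to 0.065 for MLXIPL, where leaving out DMSO replicate 1 (0.065), itraconazole replicate 2 (0.022) or itraconazole replicate 3 (0.012) turned the sign, -0.10 to 0.0036 for ARRDC1, which turned without itraconazole replicate 2, and 0.081 to 0.20 for MLXIP, called without itraconazole replicate 1. Between the lines with DMSO it gave -0.21 to -0.11 for ARRDC1, not called without SW948 replicate 2. For MLX it gave 0.11 to 0.21, not called without HT55 replicate 2, HT55 replicate 4 or SW948 replicate 1. The MLX difference of 0.14 was not called at an adjusted p under 0.01 nor in 1 fit on all 16 libraries (adjusted p = 0.112).

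With the longest transcript as length, the order per kilobase in HT55 DMSO became MLX at rank 2, ARRDC1 at 3, MLXIP at 4 and ARRDC3 at 5, and in SW948 itraconazole MLXIP at 4, ARRDC2 at 5 and MLXIPL at 6. Leaving out 1 library of SW948 itraconazole gave ranks 5 to 6 for both MLXIP and MLXIPL. By Spearman's rho, 3 of the 5 genes closest to ARRDC3, and 3 of the 5 closest to ARRDC4, were among the first 5. Likeness to TXNIP was not run.

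Replicate numbers are shared by the groups. Within a line, the deviations of same-numbered libraries from their group means had correlations of -0.025 to 0.116. Replicate 3 had the highest in both lines, at 0.116 in HT55 and 0.104 in SW948. Libraries of different numbers were not compared, so a batch shared by number was not tested. The numbers were not read as pairs in the main fits. With the replicate block, 6300 genes were called in HT55, 9973 in SW948, 7037 for the difference between responses, 10827 between the lines with DMSO and 9325 with itraconazole, and no call of a member changed.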
